A study of Mus musculus with 30 samples.

Results

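The 9 genes described here encode shared subunits of the COMPASS complexes, subunits of the UTX-containing complexes and JMJD3, the relative of UTX: Wdr5, Ash2l, Rbbp5, Dpy30, Cxxc1, Kdm6a, Kdm6b, Paxip1 and Ncoa6. They were taken by name, out of 21883 protein-coding genes on the numbered chromosomes, X and Y in the RefSeq annotation of GRCm38, the assembly of mm10. Every peak whose summit lay inside a gene or within 5 kb of it was assigned to that gene. The data are peak lists from chromatin immunoprecipitation sequencing of WT-MA9, mouse leukaemia cells carrying pMSCV-MLL-AF9-GFP, a retroviral vector for the MLL-AF9 fusion, as a stable insert. All 4 groups share this genotype. The 4 libraries analysed were UTX in MI-503, UTX in DMSO, Menin in MI-503 and Menin in DMSO. MI-503 inhibits the Menin-MLL interaction, and DMSO was the vehicle. Cells were collected 4 days after treatment, and the sources used here do not give the concentration of MI-503. There was 1 library per condition, so no difference between conditions has a replicate check. The cell type could not be checked from peak lists, which hold no expression values.

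COMPASS complexes methylate lysine 4 of histone H3. A catalytic subunit of the MLL or SET1 family is held by a shared core of WDR5, RBBP5, ASH2L and DPY30, which the enzyme needs for full activity. CXXC1, also called CFP1, binds unmethylated CpG sites and belongs to the SET1 complexes. UTX, PTIP and NCOA6, encoded by Kdm6a, Paxip1 and Ncoa6, are found with MLL3 and MLL4. UTX and JMJD3, encoded by Kdm6b, remove methyl groups from lysine 27 of histone H3, the mark laid down by Polycomb. JMJD3 is not a COMPASS subunit. Menin is a scaffold of the MLL1 and MLL2 complexes. The antibody against UTX therefore binds the product of a gene described here.

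For the genes whose annotated start carried a peak, the promoter shows where both proteins lay relative to sequence. The RefSeq promoter table (GRCm38.p6), which gives 250 bases before and 50 after each start, matched 6 of the 9 genes, with 9 promoters. Wdr5, Kdm6a and Paxip1 are shown because peaks of both UTX MI-503 and Menin DMSO lay on their promoter. The inner promoter of Dpy30 is shown because it carried UTX alone, and Rbbp5 and Ncoa6 because they carried neither. The only listed start of Ncoa6, 155440783, lies inside the gene, whose upper-numbered end on the minus strand is 155473911. Sequence at that end was not examined. Capitals mark matches, on either strand, to any of 7 short motifs: CCAAT (bound by NF-Y), GGGCGG (the GC box), the ETS-type motif CCGGAAG, the NRF1-type motif GCATGCG, the E-box CACGTG, the CREB-type motif TGACGT and the TATA-type motif TATAAA. Each line runs 5′ to 3′ along the gene's strand.
Kdm6a, chrX:18162325-18162624, plus strand: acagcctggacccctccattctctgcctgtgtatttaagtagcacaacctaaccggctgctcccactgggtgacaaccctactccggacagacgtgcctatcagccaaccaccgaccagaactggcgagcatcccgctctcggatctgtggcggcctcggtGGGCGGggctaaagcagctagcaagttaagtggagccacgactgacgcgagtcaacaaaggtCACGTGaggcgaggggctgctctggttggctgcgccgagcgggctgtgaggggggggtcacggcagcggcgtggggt
Wdr5, chr2:27514897-27515196, plus strand: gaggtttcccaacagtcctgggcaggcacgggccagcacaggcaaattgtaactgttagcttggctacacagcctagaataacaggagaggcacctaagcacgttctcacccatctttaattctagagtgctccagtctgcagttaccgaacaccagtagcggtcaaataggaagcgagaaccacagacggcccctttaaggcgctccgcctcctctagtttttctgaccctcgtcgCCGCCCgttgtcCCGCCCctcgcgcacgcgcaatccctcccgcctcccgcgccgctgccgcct
Paxip1, chr5:27791501-27791800, minus strand: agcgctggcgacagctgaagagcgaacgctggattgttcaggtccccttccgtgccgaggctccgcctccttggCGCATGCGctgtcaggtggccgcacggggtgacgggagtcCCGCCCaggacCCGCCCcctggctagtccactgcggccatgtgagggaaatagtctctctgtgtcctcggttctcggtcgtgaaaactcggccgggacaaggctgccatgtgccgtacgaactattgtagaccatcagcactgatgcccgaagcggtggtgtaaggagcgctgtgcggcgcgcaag
Dpy30, chr17:74316162-74316461, minus strand: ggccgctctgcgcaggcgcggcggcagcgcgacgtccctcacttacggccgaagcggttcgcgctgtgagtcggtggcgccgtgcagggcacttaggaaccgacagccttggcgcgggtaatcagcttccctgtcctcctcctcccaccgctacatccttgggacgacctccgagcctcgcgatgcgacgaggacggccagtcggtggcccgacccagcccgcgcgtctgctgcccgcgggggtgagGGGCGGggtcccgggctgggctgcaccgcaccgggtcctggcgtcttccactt
Rbbp5, chr1:132477117-132477416, plus strand: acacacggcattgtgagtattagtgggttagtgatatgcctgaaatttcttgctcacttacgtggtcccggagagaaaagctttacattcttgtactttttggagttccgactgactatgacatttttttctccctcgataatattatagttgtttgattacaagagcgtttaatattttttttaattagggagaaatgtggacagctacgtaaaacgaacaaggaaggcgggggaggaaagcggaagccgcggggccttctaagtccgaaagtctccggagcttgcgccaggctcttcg
Ncoa6, chr2:155440734-155441033, minus strand: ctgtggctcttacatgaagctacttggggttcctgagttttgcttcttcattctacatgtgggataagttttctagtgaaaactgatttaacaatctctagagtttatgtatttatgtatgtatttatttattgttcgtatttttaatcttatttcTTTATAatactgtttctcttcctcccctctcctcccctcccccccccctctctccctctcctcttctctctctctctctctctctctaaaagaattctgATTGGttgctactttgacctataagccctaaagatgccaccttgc

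Of the sequences shown, the 4 under a UTX MI-503 peak each held a GC box, and those of Rbbp5 and Ncoa6 held none. The Ncoa6 sequence is that of a start inside the gene, so it does not describe the outer end of Ncoa6. A second inner promoter of Dpy30 (chr17:74316345-74316644), with 35 bases under the UTX peak, held none of the 7 motifs. The Kdm6a promoter had 1 GC box, 89 bases before the start, and 1 E-box, 27 bases before it. Wdr5 had 2 GC boxes on the reverse strand, beginning 13 bases and 1 base before the start. Paxip1 had 2 at 136 and 125 bases before the start, and a pair of overlapping GCATGCG matches at 176 and 175 bases. The Dpy30 promoter shown had its GC box 3 bases before the start. Of all 32851 promoters in the table, 35.7% held a GC box, 7.15% an E-box and 3.58% the NRF1-type motif. The NF-Y motif CCAAT, which 37.4% of all promoters held, was found at none of the promoters under a peak. It was found at Ncoa6, 5 bases after the start, and at the outer promoter of Dpy30 (chr17:74323895-74324194), 202 bases before the start. TATAAA was found only at Ncoa6, 94 bases before the start, against 13.6% of all promoters. CCGGAAG and TGACGT were found at none of the 9 promoters, against 8.86% and 7.51% of all promoters. A match is only a run of letters, and a missing match speaks only for this window.

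The promoters under a peak were rich in CpG, and over the whole table CpG-rich promoters carried a peak more often. Of those shown, Dpy30 held 39 CpG sites, Paxip1 28, Wdr5 22 and Kdm6a 21. Rbbp5 held 16, and the inner promoter of Ncoa6 and the outer promoter of Dpy30 held 1 each. Over the whole table, a UTX MI-503 peak touched 61.4% of promoters with 21 to 67 CpG sites, 32.9% of those with 8 to 20 and 0.563% of those with 0 to 3. For Menin DMSO peaks these shares were 55.2%, 27.5% and 0.543%.

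UTX MI-503 peaks were found at 8 of the 9 genes and Menin DMSO peaks at 7. The same rule found a peak at 48.3% of all protein-coding genes in the UTX MI-503 list and at 42.9% in the Menin DMSO list. The 7 genes with both were Wdr5, Ash2l, Dpy30, Cxxc1, Kdm6a, Kdm6b and Paxip1, while 38% of all protein-coding genes had both. Ncoa6 had UTX alone and Rbbp5 had neither. Both Menin peaks at Dpy30 and the only peak at Ncoa6 lay inside a neighbouring gene. With summits inside the gene only, the Menin DMSO count fell to 7 peaks at 2 genes, Kdm6a and Kdm6b, against 16 peaks at 7 genes with the 5 kb window. The shares of all genes here are for the 5 kb window, and none is given for the inside-only count. None of the 9 had a UTX DMSO peak, where 1.07% of all genes had one, or a Menin MI-503 peak, where 0.0183% did. Those lists held 217 and 8 peaks, and nothing about the 9 genes is read from them. The UTX MI-503 list held 14231 peaks and the Menin DMSO list 11195.

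All folds are the authors' values per peak, and no order between lists can be read from them, since each is relative to its own library and local background. MACS2's formula adds 1 to both pileup and background before taking their ratio, so a fold is lower than fragments divided by background. Under MACS2's default scaling, pileups gave a library at least 1.35 times as large as its input for Menin MI-503 and at least 1.14 times for UTX DMSO. The libraries of both long lists, called against those same inputs, were no larger than the input. Absolute depth is unknown. Because lists of 1 antibody share an input, they are only set side by side.

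**Figure D1:**
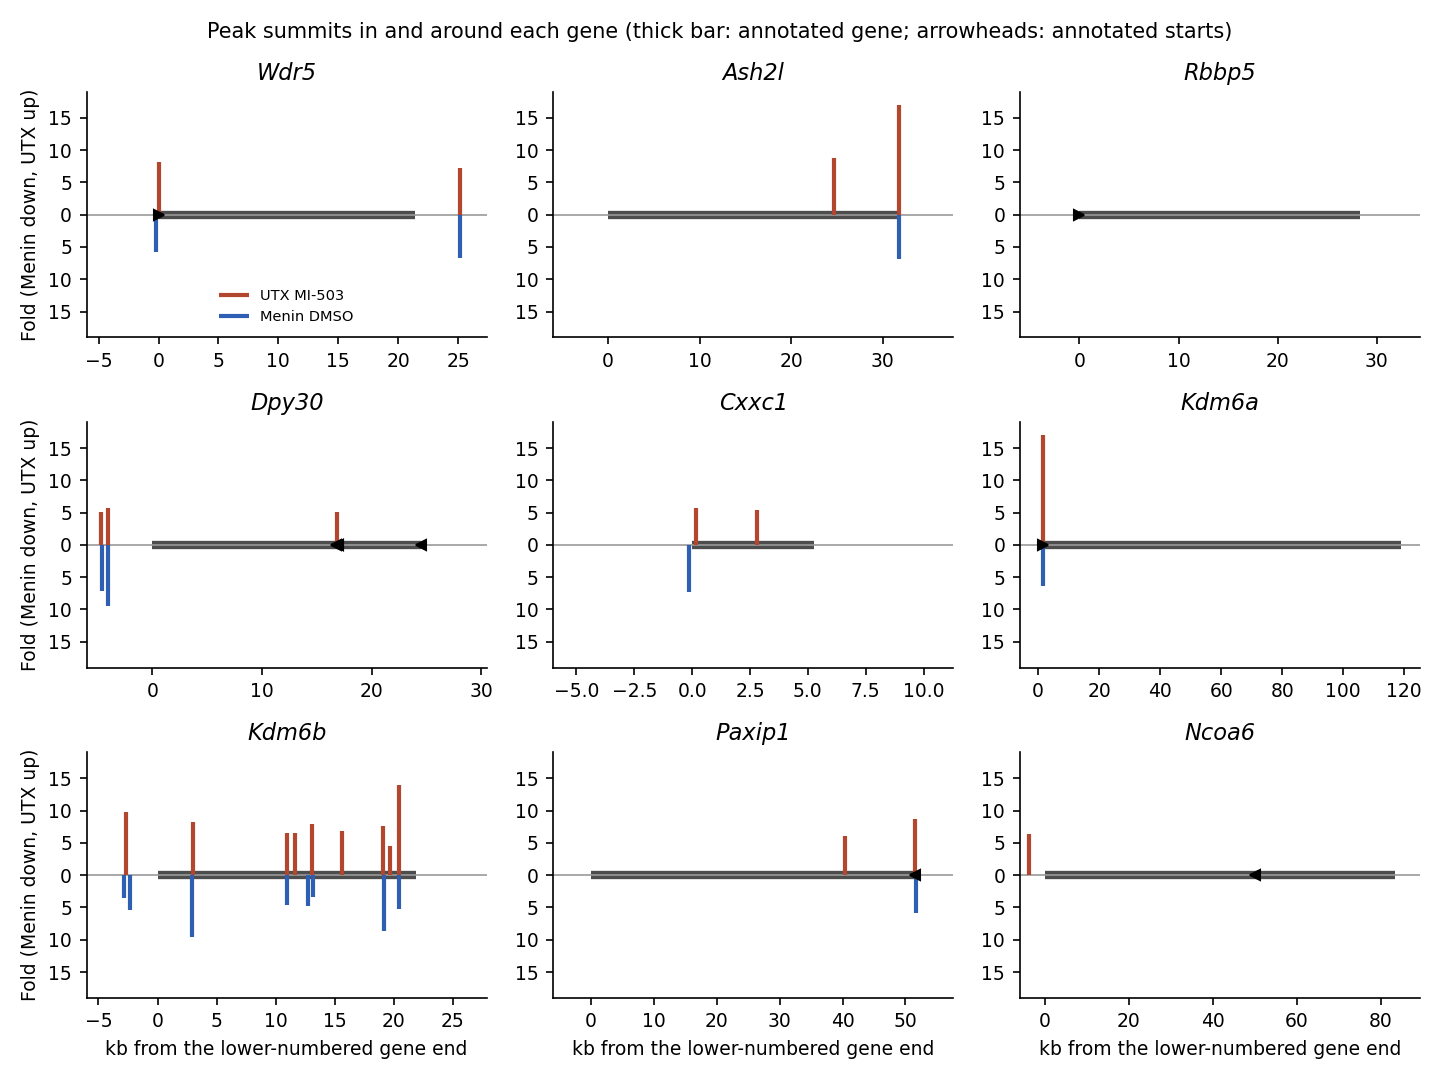
Summits of UTX MI-503 peaks (upward lines) and Menin DMSO peaks (downward lines) at each of the 9 genes, with fold enrichment as the length of the line and distance in kb from the lower-numbered end of the gene on the horizontal axis. The thick bar is the annotated gene and arrowheads are annotated starts where the promoter table gives them; Kdm6b carries 9 and 8 summits, and Rbbp5 none.

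Among the core subunits, the UTX peak with the highest fold was at Ash2l, with a counting interval (12.3 to 22.9) that overlapped that of Wdr5 (4.78 to 13.1). ASH2L binds RBBP5 and DPY30 and activates the methyltransferase. The gene spans 25816000 to 25847694. Its UTX MI-503 peak (mm10, chromosome 8, 25847625 to 25847994) reached 17.0-fold enrichment, from 41 fragments over the summit against a background of 1.47. It ranked 1419 of 14231 by fold, above 90.0% of the list. The Menin DMSO peak at the same place (25847627 to 25847886) had 6.88-fold enrichment and ranked 4367 of 11195. The summits were 17 bp apart, 81 bp (UTX) and 64 bp (Menin) outside the upper-numbered end of Ash2l, and 852 and 869 bp from the nearest boundary of Kcnu1. A further UTX MI-503 peak lay inside Ash2l (25840583 to 25840851, 8.76-fold) with no Menin peak over it. The gene table has no strand for Ash2l, Cxxc1 or Kdm6b, and no exons for any gene, so places are given from gene ends or as inside the gene.

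Wdr5 encodes the WD-repeat protein through which MLL enzymes contact the core, and spans 27515147 to 27536535 on the plus strand. Its UTX MI-503 peak (chromosome 2, 27515026 to 27515287) had 8.15-fold enrichment, rank 5870, with the summit 2 bp after the annotated start. The Menin DMSO peak (27514745 to 27515232) had 5.77-fold enrichment, rank 5746, with the summit 238 bp before the start. Both peaks were near the middle of their list, above 58.7% of UTX MI-503 peaks and 48.6% of Menin DMSO peaks. A pair of peaks beyond the other end, UTX at 7.27-fold (27539912 to 27540526) and Menin at 6.73-fold (27540154 to 27540452), lay 3814 and 3751 bp outside Wdr5. Their summits were 77 and 140 bp from an annotated start of the predicted gene Gm13421.

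Dpy30 encodes the smallest core subunit, which binds ASH2L. It spans 74299474 to 74323944 on the minus strand of chromosome 17. Both Menin DMSO peaks assigned to it lay inside its neighbour Memo1. Of its annotated starts, 1 is at the outer end, 74323944, and 3 lie inside the gene, at 74316211, 74316394 and 74316433. A UTX MI-503 peak (74316123 to 74316379) covered 218 bases of the innermost promoter, at 5.13-fold enrichment from 9 fragments, rank 12687 of 14231. Its summit lay 72 bp after the start at 74316394. From the outer start, the nearest UTX MI-503 summit was this one, 7622 bp downstream, and the nearest Menin DMSO summit was 14820 bp upstream. The remaining peaks, UTX MI-503 at 5.03-fold and 5.64-fold and Menin DMSO at 7.07-fold and 9.40-fold, were more than 4 kb outside Dpy30. They lay inside Memo1, from 45 to 547 bp from an annotated start of that gene. Inside Dpy30 itself there was UTX alone.

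Rbbp5 encodes the core subunit that bridges WDR5 and ASH2L, and it was the only one of the 9 with no peak in any of the 4 lists. The nearest UTX MI-503 summit lay 36386 bp outside the gene (5.47-fold) and the nearest Menin DMSO summit 35677 bp outside (5.30-fold). Rbbp5 spans 132477348 to 132505665 on the plus strand of chromosome 1. A missing peak means that no enrichment was called at this depth, not that the protein was absent.

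Cxxc1 encodes the CpG-binding subunit of the SET1 complexes and spans 74216212 to 74221493. Its UTX MI-503 peak (chromosome 18, 74216239 to 74216449) had 5.69-fold enrichment from 11 fragments and ranked 10891 of 14231. The Menin DMSO peak (74215824 to 74216343) had 7.29-fold enrichment from 36 fragments, ranked 3915 of 11195, and at 520 bp was wider than 89.1% of its list. The UTX summit lay 177 bp inside the lower-numbered end and the Menin summit 142 bp outside it, 319 bp apart. A weaker UTX MI-503 peak (74218938 to 74219116, 5.46-fold) lay inside the gene without Menin. By its highest peak Cxxc1 was above 23.4% of the UTX MI-503 list and 64.9% of the Menin DMSO list, whereas Ash2l was above 90.0% and 61.0%, and Kdm6a above 89.6% and 55.0%.

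Kdm6a, which encodes UTX itself, carried a peak in both lists at its annotated start. It spans 18160862 to 18279936 on the plus strand. Its single UTX MI-503 peak (chromosome X, 18162387 to 18162762) had 17.0-fold enrichment from 30 fragments over a background of 0.827, the lowest found in the list. It ranked 1432 of 14231, above 89.6% of the list, with the summit 11 bp after the start. The single Menin DMSO peak (18162387 to 18162633) had 6.29-fold enrichment from 20 fragments and ranked 5027 of 11195, with the summit 90 bp before the start. Neither summit was within 1 kb of the gene's lower-numbered end, from which they lay 1724 and 1623 bp, because the annotated gene reaches further upstream than this start. A window of 1 kb around the gene's ends therefore misses both. Outside the gene there was no further peak for 2145717 bp in the UTX MI-503 list and for 2084579 bp in the Menin DMSO list.

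Among the partners of UTX, Paxip1 encodes PTIP, a BRCT-domain protein of the MLL3 and MLL4 complexes with a role in DNA damage responses, and spans 27740080 to 27791672 on the minus strand. Its UTX MI-503 peak (chromosome 5, 27791443 to 27791805) had 8.76-fold enrichment, rank 5073, and covered all 300 bases of the promoter shown. The Menin DMSO peak (27791551 to 27791897) had 5.91-fold enrichment, rank 5525. The UTX summit lay 26 bp after the start and the Menin summit 150 bp before it. A weaker UTX MI-503 peak (27780415 to 27780615, 6.02-fold) lay inside the gene, 11089 bp from the start, without Menin. Ncoa6 encodes a nuclear receptor coactivator and spans 155390656 to 155473911 on the minus strand. Its only peak, UTX MI-503 at 6.32-fold (chromosome 2, 155386781 to 155387060), lay 3755 bp outside the gene and inside Trp53inp2, a neighbour that acts in autophagy. The only annotated start of Ncoa6, which lies inside the gene, was 53882 bp from the nearest UTX MI-503 summit and 58957 bp from the nearest Menin DMSO summit.

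Kdm6b, whose demethylase is induced by inflammatory signals in macrophages, carried peaks along its length (69398508 to 69420367). It had 9 UTX MI-503 summits and 8 Menin DMSO summits, of which 8 and 6 lay inside the 21860 bp gene. In each list, 2 protein-coding genes had more summits. Genes with at least as many as Kdm6b made up 0.032% of all in the UTX MI-503 list and 0.0228% in the Menin DMSO list, Kdm6b included. UTX folds ran from 4.44 to 14.0 with a median of 7.68, and Menin folds from 3.44 to 9.65 with a median of 5.00. The highest UTX peak (chromosome 11, 69418634 to 69419142, 14.0-fold, rank 2288) lay 1380 bp inside the upper-numbered end. The Menin DMSO peak there (69418900 to 69419136) had 5.28-fold enrichment with its summit 4 bp away. The highest Menin peak (69401327 to 69401610, 9.65-fold, rank 2305) lay 2954 bp inside the other end, where the UTX peak (69401304 to 69401655) had 8.21-fold enrichment. The counting intervals of these places overlapped within each list, 9.35 to 20.3 against 4.74 to 13.4 for UTX and 7.17 to 12.7 against 3.39 to 7.87 for Menin, so no strongest place can be read beyond counting error.

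In the middle of Kdm6b, a UTX MI-503 peak 860 bp wide (69410893 to 69411752, 7.90-fold), wider than 98.6% of its list, spanned 2 Menin DMSO peaks of 4.73-fold and 3.44-fold. A further shared place (69417541 to 69417790 in UTX) had 7.68-fold UTX and 8.58-fold Menin enrichment. UTX peaks at 69410076, 69414024 and 69418091 had no Menin peak over them, at 6.55-fold, 6.80-fold and 4.44-fold. All 8 Menin peaks were overlapped by UTX. Outside the gene, 1 UTX and 2 Menin peaks lay more than 2 kb from its lower-numbered end, inside Naa38 or Cyb5d1 and from 76 to 350 bp from a boundary of Naa38, Cyb5d1 or Tmem88.

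**Figure D2:**
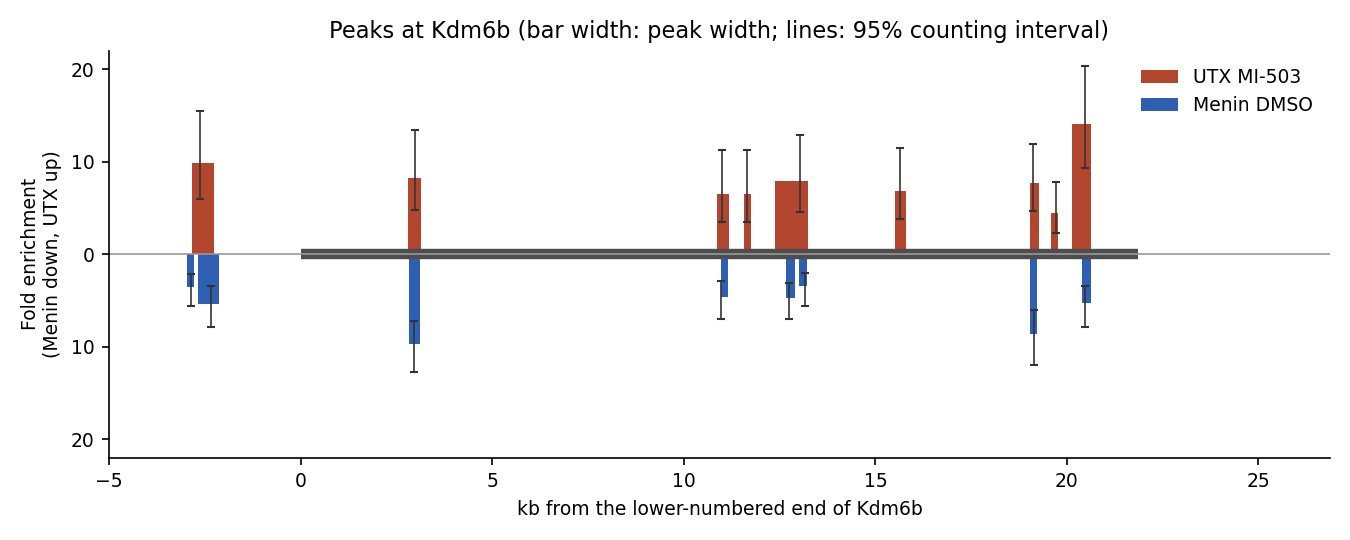
Fold enrichment of the peaks at Kdm6b, UTX MI-503 upward and Menin DMSO downward, against distance in kb from the lower-numbered gene end (thick bar: gene). Bar width is peak width and lines are 95% intervals for the fragment count; the highest values are 14.0 for UTX, near the upper-numbered end, and 9.65 for Menin, near the other end, with intervals that overlap those of other peaks of the same list.

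The genes were ordered by their highest assigned peak. In the UTX MI-503 list the order was Ash2l (17.0-fold, 95% interval 12.3 to 22.9), Kdm6a (17.0, 11.6 to 24.0), Kdm6b (14.0, 9.35 to 20.3), Paxip1 (8.76, 5.14 to 14.1), Wdr5 (8.15, 4.78 to 13.1), Ncoa6 (6.32, 3.50 to 10.7), Cxxc1 (5.69, 3.08 to 9.81) and Dpy30 (5.64, 2.97 to 9.94). The intervals of Ash2l and Kdm6a lay above those of Ncoa6, Cxxc1 and Dpy30, and every gene overlapped its neighbours in the order. In the Menin DMSO list the order was Kdm6b (9.65, 7.17 to 12.7), Dpy30 through the Memo1 peak (9.40, 6.62 to 13.0), Cxxc1 (7.29, 5.16 to 10.0), Ash2l (6.88, 4.75 to 9.68), Wdr5 (6.73, 4.95 to 8.95), Kdm6a (6.29, 3.96 to 9.56) and Paxip1 (5.91, 4.02 to 8.40). All 7 intervals overlapped each other, so no order of the Menin peaks can be read beyond counting error. The intervals are exact Poisson intervals on the fragments over a summit, cover counting error only and were not tested against each other. Some values are not from a peak in the gene itself. The UTX value of Ncoa6 is a peak inside Trp53inp2, and both values of Dpy30 are peaks inside Memo1, the UTX peak inside Dpy30 having 5.13-fold enrichment. The Menin value of Wdr5 is the peak near Gm13421, the one at the Wdr5 start having 5.77-fold enrichment. The Kdm6b value is the highest of several peaks, which favours a high value.

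**Figure D3:**
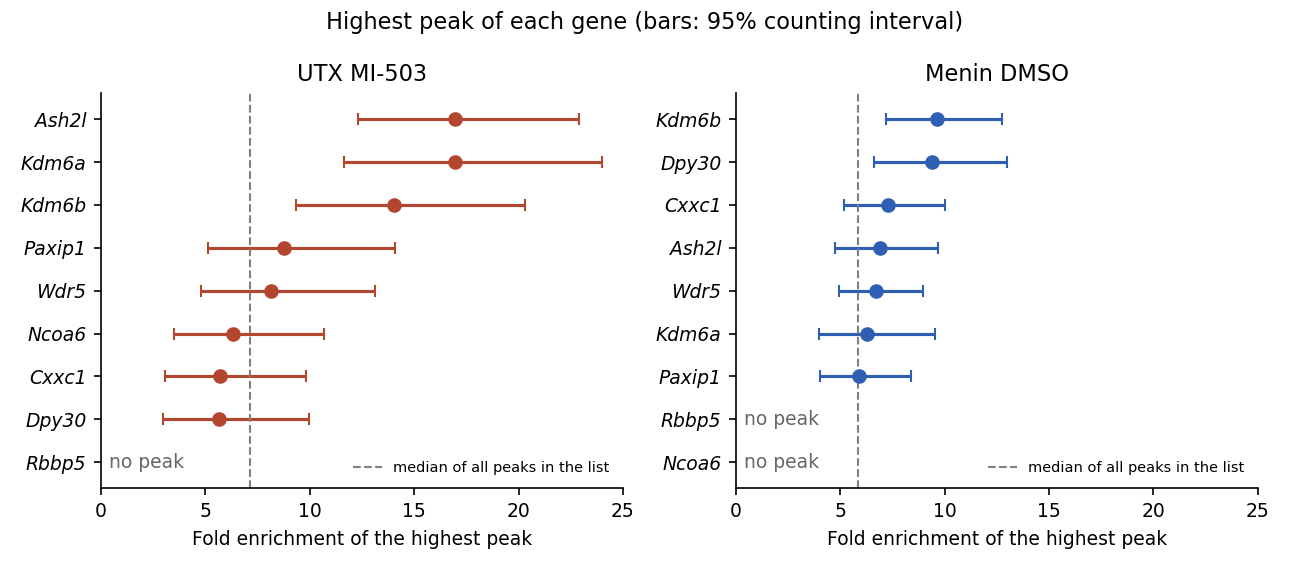
Fold enrichment of the highest peak of each gene in the UTX MI-503 list and in the Menin DMSO list (points), with 95% counting intervals (bars) and the median of all peaks in the list (dashed). UTX spans 5.64 to 17.0 and Menin 5.91 to 9.65; both values of Dpy30 are peaks inside Memo1, the UTX value of Ncoa6 is a peak inside Trp53inp2 and the Menin value of Wdr5 is a peak near Gm13421.

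The peaks of these genes were of ordinary height. The 22 UTX MI-503 peaks had a median fold of 7.04, against 7.11 over the whole list, and 11 were above the list's median. The 16 Menin DMSO peaks had a median of 6.10, against 5.87, and 9 were above. Taking only the highest peak of each gene, the median was 8.45 over 8 genes for UTX, against 9.85 over all 10562 genes with a peak, and 6.88 over 7 genes for Menin, against 7.14 over 9378. None of the 38 peaks lay on a local background as high as 3 times the lowest found in its list, the highest ratios being 1.78 for UTX and 2.50 for Menin.

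Every Menin DMSO peak at these genes lay on a UTX MI-503 peak, while UTX had places of its own. Of the 22 UTX MI-503 peaks, 14 were overlapped by a Menin DMSO peak by at least 1 bp, where 53.4% of the whole list were. Of the 16 Menin DMSO peaks, 16 were overlapped by UTX, where 66.4% of the whole list were. Kdm6b supplied many of them. Without it, 8 of 13 UTX peaks and 8 of 8 Menin peaks were overlapped. Under a stricter rule, an overlap covering at least 50% of each peak, 9 UTX and 9 Menin peaks counted, and with summits within 100 bp, 8 and 8. Whole-list shares are given only for the 1 bp rule, so the stricter counts cannot be set against their list. The lists differ in both antibody and treatment, so whether both proteins sat at a shared place under 1 condition was not tested, and antibody and treatment cannot be told apart.

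At the 3 annotated starts with both peaks, the UTX summit lay downstream of the Menin summit, on the transcribed side. The offset was 240 bp at Wdr5, 176 bp at Paxip1 and 101 bp at Kdm6a. Over all 4460 overlapping pairs at annotated starts of protein-coding genes, where starts on 1 strand only lay within 1 kb, UTX was downstream in 55.6%, with a median offset of 7 bp and the middle 50% of pairs from -29 to 51 bp. The 3 genes thus lay outside that middle range on 1 side. Ash2l and Cxxc1 are not among them because no start is given for them. Their summits lay 17 and 319 bp apart at a gene end. The summits rested on few fragments, for UTX and Menin 15 and 25 at Wdr5, 15 and 29 at Paxip1, and 30 and 20 at Kdm6a. With 3 pairs this is a description, and no test was made.

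**Figure D4:**
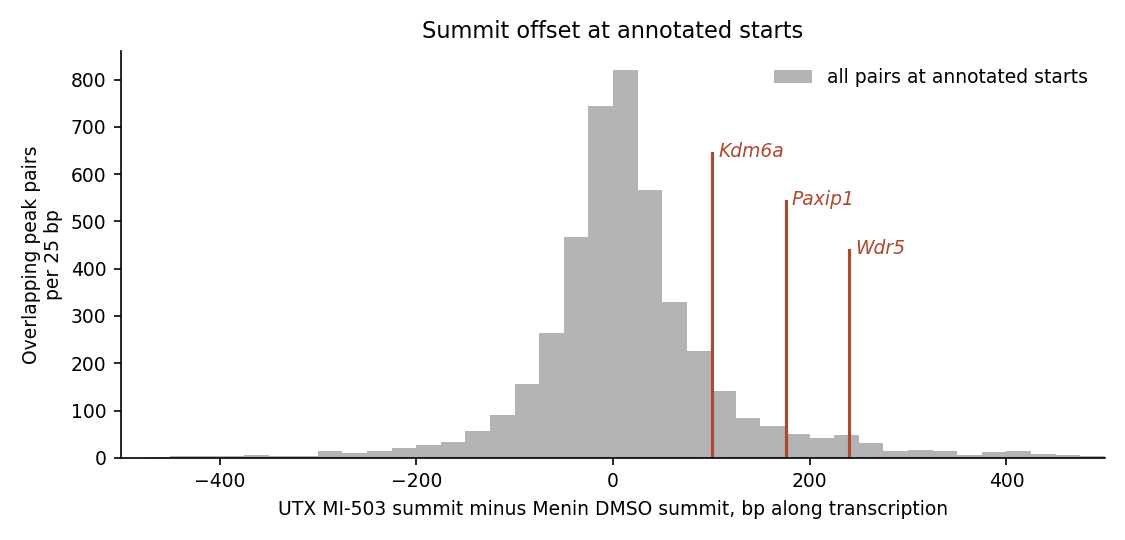
Histogram of the distance in bp, along the direction of transcription, from the Menin DMSO summit to the overlapping UTX MI-503 summit over 4460 pairs at annotated starts (grey, 25 bp bins, shown from -500 to 500 bp). Lines mark Kdm6a at 101, Paxip1 at 176 and Wdr5 at 240 bp; most pairs lie near 0.

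Summits were also counted within 1 kb of annotated starts, or of either gene end where no start is given, for the 9 and for all genes. By this rule 6 of the 9 genes had a UTX MI-503 summit, against 37.8% of all protein-coding genes, and 5 had a Menin DMSO summit, against 32.2%. In the UTX DMSO list 0 of 9 did, against 0.781%, and in the Menin MI-503 list 0 of 9, against 0.00914%. Those with UTX were Wdr5, Ash2l, Dpy30, Cxxc1, Kdm6a and Paxip1, and all but Dpy30 also had Menin. For Ash2l and Cxxc1 either gene end was accepted. Kdm6b fell out because its outermost summits inside the gene were more than 1 kb from either end. Its start is not given, so whether a summit lay at it is unknown.

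The other genes of these complexes, the catalytic subunits and their partners, were often covered too. Of 16 listed, 14 had a UTX MI-503 peak within the same window, 1 a UTX DMSO peak, 0 a Menin MI-503 peak, while 12 had a Menin DMSO peak, against the shares of all genes given above. Their highest UTX MI-503 peaks were at Kmt2d, which encodes MLL4 (31.2-fold, rank 118), Kmt2a, which encodes MLL1 (18.6-fold), Psip1, which encodes the chromatin tether LEDGF (14.2-fold), and Setd1a, a SET1 methyltransferase (11.3-fold). Menin DMSO peaks at these genes reached 10.9-fold at Kmt2d, 9.50-fold at Kmt2a and 4.52-fold at Setd1a, and Psip1 had none. Men1, which encodes Menin, was the gene with a UTX DMSO peak (6.89-fold, rank 157 of 217), whose summit lay outside the gene but within 1 kb of it. In the same 5 kb window Men1 also had a UTX MI-503 peak of 7.66-fold and Menin DMSO peaks of up to 5.52-fold. Bod1 and Uty, the Y-linked relative of Kdm6a, had no peak, nor did Kdm5d, a Y-linked demethylase gene outside this list. These genes are named after their values were seen. Whether the cells carry a Y chromosome was not checked.

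Among 19 other lysine demethylase genes, UTX MI-503 peaks were found at 18 and Menin DMSO peaks at 14, with 0 in the UTX DMSO and Menin MI-503 lists. The shares of all protein-coding genes by the same rule were 48.3% for UTX MI-503 and 42.9% for Menin DMSO. For UTX DMSO and Menin MI-503 they were 1.07% and 0.0183%. The highest UTX MI-503 peaks were at Kdm4b (32.3-fold, rank 89) and Kdm4a (19.8-fold), which act on lysine 9 and 36 of histone H3, Kdm1b (23.0-fold), which acts on lysine 4, and Kdm3a (18.2-fold), which acts on lysine 9. Their highest Menin DMSO peaks had 12.2-fold enrichment at Kdm4b, 7.58-fold at Kdm4a, 37.0-fold at Kdm1b and 7.53-fold at Kdm3a. The median of the highest fold per gene was 9.33 for UTX MI-503 and 7.55 for Menin DMSO in this list, and 9.44 and 6.28 among the other COMPASS genes, against 9.85 and 7.14 over all genes with a peak.

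Kdm6b had the best average percentile of its highest peak over the UTX MI-503 and Menin DMSO lists, a place that counting error does not separate from its neighbours and that having several peaks favours. It was used only to choose genes for comparison. Genes with Gm, Rik or LOC symbols were left out of the search. Of the non-member genes searched, those with the most similar pair of highest folds were Get1 (14.1 in UTX MI-503 and 9.59 in Menin DMSO), Ppp4r3a (14.2 and 9.59) and Nelfcd (14.2 and 9.75). Their distances were 0.013 to 0.024 in log2 fold over the 2 lists. A likeness over 2 values describes the height of a peak and nothing further.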

How the data were processed

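Members and gene lists were chosen with earlier results of these data known. Peaks were called with MACS2 on mm10 (per the submitters' processing notes; no version, aligner, filter or threshold is named there), each on 1 library against 1 vehicle input, per the peak names in the deposited lists. The deposited fold is a ratio of summit pileup to local background, with 1 added to each under MACS2's formula. Significance was deposited as −log10 p and −log10 q. The deposited score was not used. Positions count from 1. Of 30 libraries, 26 were not analysed here.

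Peaks were ranked by fold within their own list. Background shares used 21883 protein-coding genes. Pileup and background were solved from each fold and p-value under MACS2's formulas; pileups were whole, within 0.01 of a step, in 100% of the peaks tried (300 per list, or all in shorter lists), against at most 50% at other steps. Assignment, overlap and solving were tested on simulated data. The simulated pileups were all above 9 fragments, the lowest pileup at these genes, so solving was not tested at the lowest counts. No test between conditions was possible with 1 library each. Named were all 9 genes, up to 4 per related list by UTX MI-503 fold, and those with a peak in a short list. The 3 searched genes most like the highest member were also named. Gene starts came from RefSeq promoters (GRCm38.p6); the planned start rule fell back on gene ends where no start was given. Work used Python 3.11.15, pandas 2.3.3, numpy 2.4.6 and SciPy 1.17.1.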

Additional observations from a re-analysis of the deposited data

How the results depend on the processing

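Of 80 alternative values, 70 stayed within 1.5 times the reported count or kept the reported order. This overstates stability. Many of the 70 are counts in the UTX DMSO and Menin MI-503 lists that were 0 to begin with. Narrower windows and higher cutoffs could not change those. Counting summits inside the gene only moved the Menin DMSO count to 7 peaks at 2 genes, the other COMPASS genes to 7 with a Menin DMSO peak and 0 with a UTX DMSO peak, and the other demethylase genes to 10 with a UTX MI-503 peak, since summits just outside an annotated end were dropped by construction. Sharing at least 50% of both peaks left 9 UTX MI-503 and 9 Menin DMSO member peaks overlapped, and summits within 100 bp left 8 and 8. Ranked by −log10 q, 2 of the 7 genes kept their place in the Menin DMSO order. Without summits inside another protein-coding gene, an alternative chosen after seeing the data, 18 UTX MI-503 peaks at 7 genes and 12 Menin DMSO peaks at 6 genes were left. For these alternatives no share of all genes or of the whole list is given, so the counts have no background beside them. Ncoa6 lost its UTX peak and Dpy30 its Menin peaks. No paired analysis was possible because each condition had 1 library. Absolute depth is unknown, so a missing peak sets no limit on binding.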

Other observations

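Few genes had as many summits as Kdm6b, and the others were picked out after their values were seen. Sfi1, a centrosomal protein gene whose reads may be shared with copies elsewhere, which was not tested, had 15 UTX MI-503 and 25 Menin DMSO summits. Midn, which encodes the nuclear protein midnolin, had 10 and 8 over 12364 bp, close to the 9 and 8 of Kdm6b over 21860 bp. Gse1 had 9 and 12 over 352883 bp. Pxn, the paxillin gene, had 9 and 6, Arhgap26 had 9 and 7, Rhof had 9 and 1, and Acoxl had 4 and 8. Kdm6b and Midn were the shortest of these 8 genes.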
